A study of Arabidopsis thaliana with 16 samples.

Results

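At 1342 of 19864 sites (6.76%) where H2A.Z fell between wild type and arp6-1 mbd9-3 in both replicates, no summit of H2A.Z over H3 was called near the site in wild type. A site was a replicate 1 peak summit of the comparison of wild-type H2A.Z with arp6-1 mbd9-3 H2A.Z that had a replicate 2 summit of the same comparison within 200 bp, and such a site is called a common lost site. The 1342 sites were selected on these deposited summit positions as those with no summit of wild-type H2A.Z over wild-type H3 within 500 bp in either replicate list. Of the other common lost sites, 2297 had such a summit in 1 of the wild-type lists and 16225 had it in 2.

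The study profiled H2A.Z and H3 by chromatin immunoprecipitation and sequencing (ChIP-seq) in shoots of Arabidopsis thaliana seedlings of the Columbia-0 ecotype, collected 13 days after germination from plates with MS medium and sucrose under long days. The 4 genotypes were wild type, the T-DNA insertion lines mbd9-3 (SALK_039302) and arp6-1 (Sail_599_G03), which are 1 line each, and the double mutant arp6-1 mbd9-3. Each genotype had 2 replicates grown on separate plates, and each replicate gave an H2A.Z and an H3 library, 8 libraries of each antibody in all. The H2A.Z antibody was raised against HTA11 and HTA9, and HTA8, another H2A.Z gene, was not a stated target.

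H2A.Z is a variant of histone H2A that the SWR1 complex exchanges into nucleosomes, most often into the first nucleosome after a transcription start site. PIE1 is the catalytic ATPase of the plant complex, and ARP6, SEF and SWC2 are further subunits. MBD9 carries a methyl-CpG-binding domain and associates with SWR1. H2A.Z over the whole body of a gene is known mainly from weakly expressed and responsive genes, whereas genes that are active in most cells carry it at the start.

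Sequences at 7 of the sites show what kind of DNA lay under them. Each is 151 bp centred on the replicate 1 summit, printed along the coding strand of the gene it lies in, from the RefSeq TAIR10.1 reference. The sites are among those with the highest scores of their kind whose window holds no untranslated exon, because stretches of untranslated regions are not printed. The first pair had the highest scores of all sites with such a window, in SETH5 (chr4:345236-345386, minus strand) and AT1G06720 (chr1:2067081-2067231, minus strand). The next had a high score in an intron at a 5′ end, in AT5G22820 (chr5:7626708-7626858, minus strand). The following pair had the next highest scores among sites in both mbd9-3 lists, where SETH5, AT1G06720 and AT1G48440 also were, and lay in AT5G51300 (chr5:20852021-20852171, minus strand) and AT5G48530 (chr5:19668494-19668644, minus strand). In these 5 the capitals mark CG dinucleotides. The last pair carries a telo box, in MAC3B (chr2:14130801-14130951, minus strand) and AT1G48440 (chr1:17907170-17907320, plus strand), and there the capitals mark that motif.
SETH5: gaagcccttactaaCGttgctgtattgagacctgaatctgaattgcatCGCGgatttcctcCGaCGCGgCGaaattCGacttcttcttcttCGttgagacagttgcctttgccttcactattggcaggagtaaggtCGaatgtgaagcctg
AT1G06720: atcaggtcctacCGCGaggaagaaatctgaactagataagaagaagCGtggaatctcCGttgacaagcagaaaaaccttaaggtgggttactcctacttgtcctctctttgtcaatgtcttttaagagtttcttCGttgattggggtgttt
AT5G22820: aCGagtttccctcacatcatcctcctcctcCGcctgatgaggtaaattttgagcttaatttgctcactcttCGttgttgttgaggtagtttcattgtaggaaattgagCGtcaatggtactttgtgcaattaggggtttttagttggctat
AT5G51300: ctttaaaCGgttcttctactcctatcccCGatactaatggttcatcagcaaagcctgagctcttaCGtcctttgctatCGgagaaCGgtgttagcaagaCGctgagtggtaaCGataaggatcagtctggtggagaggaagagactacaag
AT5G48530: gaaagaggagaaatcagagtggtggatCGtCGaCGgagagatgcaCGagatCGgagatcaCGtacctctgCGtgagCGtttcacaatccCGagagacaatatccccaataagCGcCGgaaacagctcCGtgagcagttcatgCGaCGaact
MAC3B: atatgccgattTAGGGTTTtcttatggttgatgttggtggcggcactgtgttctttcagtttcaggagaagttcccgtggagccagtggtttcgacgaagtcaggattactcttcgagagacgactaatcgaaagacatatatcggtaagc
AT1G48440: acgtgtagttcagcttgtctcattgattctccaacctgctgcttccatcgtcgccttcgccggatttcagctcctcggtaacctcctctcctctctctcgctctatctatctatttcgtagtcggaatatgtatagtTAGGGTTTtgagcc
The intron window of AT5G22820 (41.7%) and the AT1G06720 window (42.4%) were lower in GC than the windows in SETH5 (48.3%) and AT5G48530 (53.0%).

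Each summit carries a score, −log10 q as the peak caller gave it, and 2 is the limit of the lists. The sites had a median score of 5.72 in replicate 1 (2.01 to 17.2) and of 5.18 in replicate 2 (2.003 to 15.2). Common lost sites with a wild-type summit had medians of 8.17 and 7.19. Thus 33.6% of the sites exceeded the median of the whole replicate 1 list (6.74) and 31.7% that of the whole replicate 2 list (6.17). These scores come from the lists that chose the sites and are given as a description. The replicate 1 and replicate 2 summits lay a median of 38 bp apart at the sites, the same as at the sites with a wild-type summit. The sites went with 1283 different replicate 2 summits, and 70 of them had another of the sites within 200 bp.

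The strongest sites lay at the beginning of long genes. The highest lower score of both replicates was at REF4 (AT2G48110), a subunit of the Mediator complex that acts in phenylpropanoid metabolism, where the scores were 13.7 in replicate 1 and 13.1 in replicate 2. SETH5 (AT4G00800), which encodes a WD-40 repeat protein, followed with 13.5 and 12.4. PIR121 (AT5G18410), a component of the SCAR/WAVE complex that regulates actin, had 11.8 and 12.7. AT5G47690, annotated as a binding protein, had 15.9 and 11.7, and AT1G06720, annotated as a P-loop nucleoside triphosphate hydrolase, had 11.2 and 12.4. All 5 summits lay 140 to 474 bp into genes of 6419 to 9764 bp with 14 to 33 exons. The nearest wild-type summit over H3 was 3382 bp away at REF4, 4034 bp at SETH5 and 5559 bp at PIR121, and it was 621 bp away at AT5G47690 and 610 bp at AT1G06720.

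The place of a site was taken from its replicate 1 summit in the RefSeq annotation, with the first and the last 500 bp of a protein-coding gene as its 5′ and 3′ end, or the nearer end in genes under 1000 bp. Of the 1342 sites, 1044 (77.8%, 95% Clopper-Pearson interval 75.5 to 80.0) lay at a 5′ end, 195 (14.5%) in a gene body and 33 (2.46%) at a 3′ end. The 5′ end share was 66.6% at lost sites with a summit in 1 wild-type list (64.6 to 68.5) and 54.4% at those with it in 2 (53.6 to 55.2). The gene body took 18.5% and 27.2% of those sites, and the 3′ end 6.75% and 9.82%. The sites without a wild-type summit were therefore placed at 5′ ends in the highest share of the 3 groups, and the intervals of the groups did not overlap. The intervals cover counting error only, because the sites share the same libraries and are not replicates, and no test of these differences was made.

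**Figure D1:**
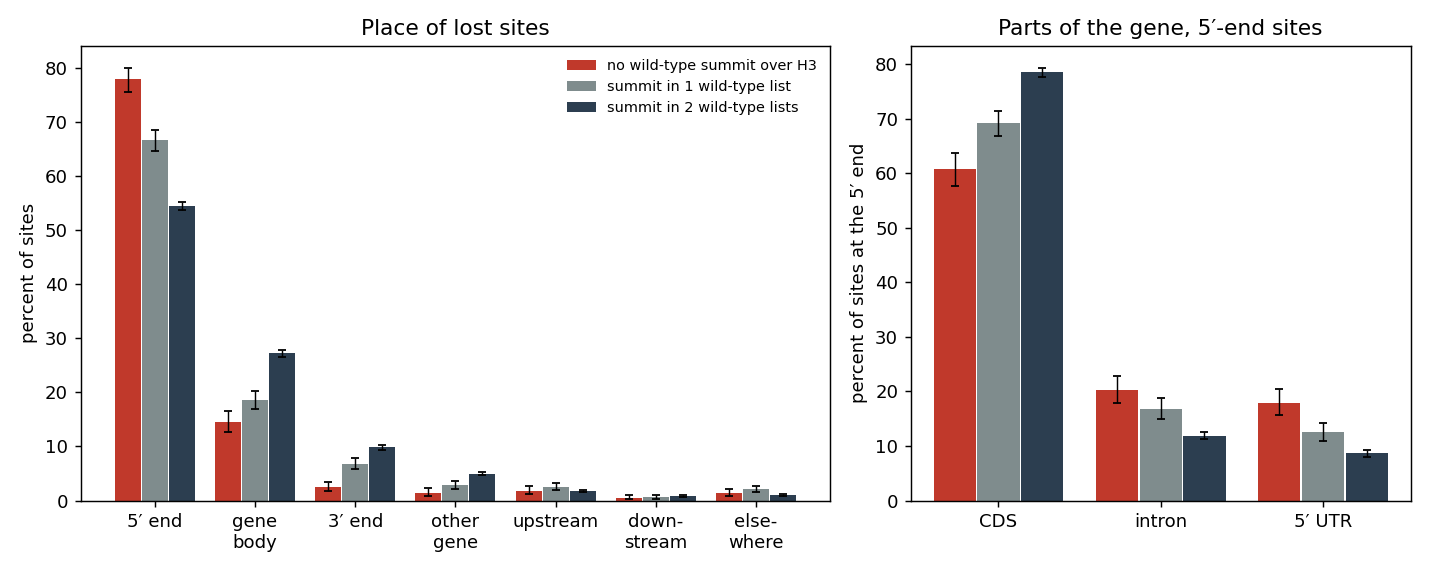
Left, percent of sites (y axis) in each place class (x axis) for common lost sites without a wild-type summit over H3 (red), with it in 1 list (grey) and with it in 2 lists (dark blue). Right, percent of the 5′ end sites in coding sequence (CDS), intron and 5′ untranslated region (UTR). Bars show shares and error bars 95% Clopper-Pearson intervals. The 5′ end falls from 77.8% to 66.6% and 54.4%, and the coding share of 5′ end sites rises from 60.7% to 69.2% and 78.5%.

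Because scores were lower at these sites, the place was also read within bands of the lower score of both replicates. At scores of 2 to 4, 66.5% of the 537 sites lay at a 5′ end, against 45.6% of lost sites with a summit in 1 wild-type list and 36.5% of those with it in 2. At scores of 4 to 6 the shares were 82.3% of 524 sites, 68.1% and 46.7%, and at 6 to 8 they were 90.7% of 204 sites, 78.8% and 54.7%. At 8 and above they were 92.2% of 77 sites, 88.6% and 71.0%. The order of the groups was the same in each of the 4 bands, and in every group the share rose with the score.

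The sites at a 5′ end clustered a short way into the gene. Their distance from the start site had a median of 298 bp, with the middle 50% from 243 to 369 bp, and that of the sites with a wild-type summit had a median of 308 bp. Measured to the nearest start site, the 50 bp bin from 250 to 300 bp alone held 229 sites, 17.1% of the 1342, against 10.3% of lost sites with a summit in 2 wild-type lists. The position was alike in the groups and the share of sites at it was not.

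**Figure D2:**
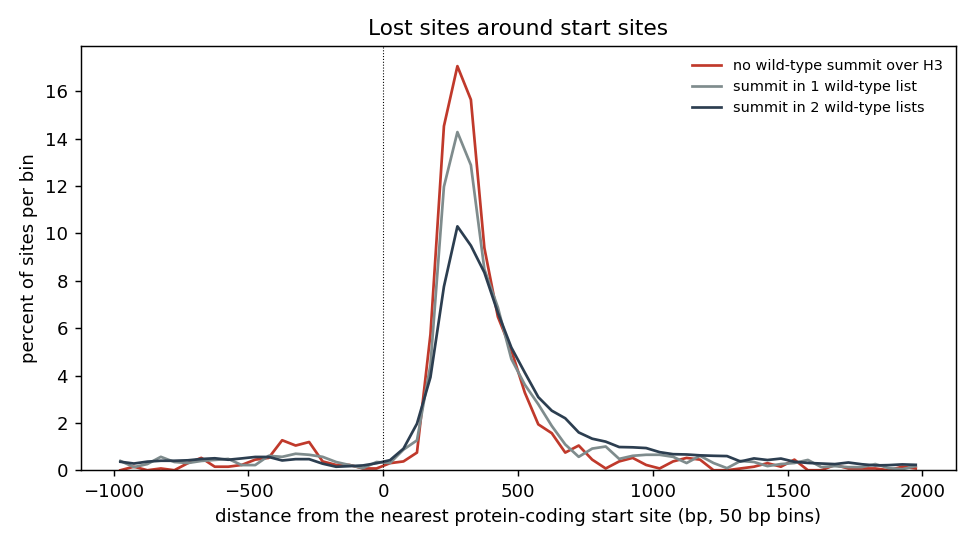
Percent of sites per 50 bp bin (y axis) by distance of the replicate 1 summit from the nearest protein-coding start site in bp (x axis), for the same 3 groups. All 3 curves peak between 250 and 300 bp, at 17.1% for sites without a wild-type summit and 10.3% for sites with it in 2 lists.

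Fewer of the sites lay in coding sequence. Among the 5′ end sites, 60.7% were in coding sequence, 20.2% in an intron and 17.9% in a 5′ UTR, against 77.1%, 12.7% and 9.23% of the 5′ end sites with a wild-type summit. Those with it in 1 wild-type list had 69.2%, 16.8% and 12.5%. The intron share was 19.0%, 24.4%, 16.8% and 9.86% from the lowest to the highest score band, against 13.9%, 12.8%, 12.7% and 10.6% of sites with a summit in 2 wild-type lists. Sites with a summit in 1 wild-type list had 21.4%, 19.4%, 16.6% and 7.62%. Their intervals overlapped those of the sites in every band. In the highest band the intron shares were thus close, with 71 of the sites in it.

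The genes were longer and had more exons. Genes with a site at the 5′ end had a median length of 2914 bp per site (middle 50% from 2095 to 4319 bp), against 2611 bp for lost sites with a summit in 1 wild-type list, 2160 bp for those with it in 2 and 2078 bp for all 27444 protein-coding genes. The transcript with most exons had a median of 7, 6, 4 and 4 exons. In the 4 score bands the median gene length at the sites was 2817, 2880, 3156 and 3320 bp. It was 1883, 2057, 2216 and 2471 bp at lost sites with a wild-type summit. Lost sites with a summit in 1 wild-type list alone lay between, with 2326, 2487, 2753 and 2987 bp. Length was greatest at the sites in every band and rose with the score in each group.

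Of the sites at other places, the strongest in gene bodies were in AT4G34730, annotated as a ribosome-binding factor A (scores 9.30 and 9.68), in EXO70B1, an exocyst subunit (10.9 and 8.27), and in EMB3135 (9.18 and 8.18). The summit in EXO70B1 lay 543 bp and that in EMB3135 634 bp from the start, just beyond the limit of the 5′ end class, and that in AT4G34730 lay 2793 bp from it. At 3′ ends the strongest were GA2OX6, which inactivates gibberellins (8.43 and 7.03), AT4G27740 (7.21 and 6.10) and AT3G24860 (5.998 and 6.15). AT4G27740, at 805 bp, and AT3G24860, at 1060 bp, are short genes in which the summit was 429 and 589 bp from the start. Hence GA2OX6 is the only one of these 3 in which the summit, at 2440 bp, was far from the start.

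Sites outside protein-coding genes were few. A non-coding RNA gene, long non-coding RNA gene or pseudogene held 20 of the sites (1.49%), 24 (1.79%) lay within 1000 bp upstream of a start site, 7 (0.522%) within 1000 bp downstream of a gene and 19 (1.42%) elsewhere. All common lost sites had 4.51% in any gene that is not protein-coding, and 1.86%, 0.78% and 1.16% at the other places. Only the first of these lay outside the interval of the sites (0.913 to 2.29). The strongest in the first class were in AT2G45023 (8.14 and 11.4) and AT4G08035 (8.52 and 7.33), both non-coding RNA genes with the summit 379 and 235 bp from their start, and in the pseudogene AT3G62455 (7.29 and 6.55). Upstream sites were led by EMB2770, a pre-mRNA splicing factor (11.7 and 9.71, 520 bp before the start), AT4G19070 (6.53 and 5.53, 306 bp) and TES, a kinesin of male meiosis (5.02 and 7.03, 341 bp). Downstream sites were led by AT2G05920, a subtilase (9.70 and 6.59), JRG21 (6.48 and 5.86) and GAD3, a glutamate decarboxylase (4.67 and 5.50). The strongest sites elsewhere had summits at chr3:4841320 (7.10 and 8.42), chr1:12564577 (6.34 and 12.3) and chr1:18961734 (9.48 and 6.08).

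The sites lay in 1187 protein-coding genes, which is 4.33% of the 27444 annotated, where any common lost site lay in 14532 (53.0%). A single site lay in 1105 genes, 79 genes held 2 and 3 genes held 3. Only 59 of the 1187 genes (4.97%) also held a common lost site with a wild-type summit. In 1108 of the 1187 genes (93.3%) neither wild-type list had a summit anywhere in the gene, in 19 a summit was in 1 list and in 60 in 2 lists. Of the 13345 genes with other lost sites only, 8 (0.0599%) had no wild-type summit in the gene. The rule fixes most of this contrast, since it asks for no wild-type summit within 500 bp of the site, but not the absence from the rest of a long gene.

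The nearest wild-type summit was a median of 2695 bp from a site, with the middle 50% from 1328 to 4479 bp and the farthest at 77215 bp. It lay within 1000 bp of 251 sites (18.7%) and between 5000 and 10000 bp from 225, with 45 farther out. The sites just past the limit were in SUR1, an enzyme of glucosinolate synthesis, at 505 bp (scores 6.53 and 6.86), AT3G57980 at 506 bp (4.50 and 3.70) and HSP70, a chaperone, at 507 bp (4.01 and 4.27). The lost sites just within it were in rps15ae, a ribosomal protein, at 500 bp (9.63 and 6.12), AT1G33360 at 499 bp (3.98 and 8.26) and AT4G38780 at 499 bp (2.77 and 4.41). Replicate summits were farthest apart at TTG1, at 200 bp, EMB93, at 197 bp, and AT3G56460, at 196 bp.

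AT4G38780, which encodes a pre-mRNA splicing factor, held 3 sites in its body at 1425 to 3315 bp from the start, with scores of 3.28 to 5.25. AT1G79540, a pentatricopeptide repeat gene, held 3 with scores of 2.20 to 10.4, and AT5G41500, an F-box gene, held 3 with scores of 2.03 to 4.14. TBL25 and AT1G02290, with 2 each, are the first by position of the 79 genes that held 2. The longest runs of sites less than 2000 bp apart had 5 sites, in 1594 bp at AT1G79540, where 2 more lay upstream of the gene, and in 2536 bp over the pseudogene AT3G62455, with scores of 3.01 to 7.29. There were 1102 sites alone, 106 pairs and 6 runs of 3. Several of these share a replicate 2 summit, as the sites of AT1G79540 at 378 and 481 bp from the start do, so they are not independent of each other.

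PIE1 (AT3G12810), the SWR1 ATPase itself, was the only one of 14 genes of the pathway and of flowering time looked up that held a site. Its summit had scores of 11.4 and 6.09 and lay in the 5′ UTR at 567 bp from the annotated start, and the nearest wild-type summit was 1010 bp away. It was also lost in arp6-1 (5.94 and 7.19) and in mbd9-3 (4.83 and 2.78). FLC, MAF4 and MAF5, MADS-box repressors of flowering, MBD9, AT2G47210, which encodes SWC4, and the H2A.Z genes HTA8, HTA9 and HTA11 held other common lost sites, all with a wild-type summit. No common lost site lay in FT, SOC1 (AGL20), ARP6, SEF or SWC2.

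Presence in the other differential lists was read as a summit within 200 bp. In wild type over arp6-1, 744 sites (55.4%, 52.7 to 58.1) had a summit in both lists, where 66.7% of all common lost sites did. A further 433 (32.3%) had it in 1 list and 165 (12.3%) in neither, against 24.3% and 9.01% of all common lost sites. By list, 66.4% of the sites were in replicate 1 and 76.8% in replicate 2, whereas lost sites with a summit in 2 wild-type lists had 85.0% and 75.1%. The lower share in both lists thus went with the replicate 1 list. The wild-type H2A.Z libraries stand behind both comparisons, and presence here is not independent of the rule.

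In wild type over mbd9-3, 186 sites (13.9%, 12.1 to 15.8) had a summit in both lists, where 13.2% of all common lost sites did. The sites were in 35.8% of cases in the replicate 1 list and in 20.7% in the replicate 2 list, against 25.7% and 19.6% of lost sites with a summit in 2 wild-type lists. Those with a summit in 1 wild-type list had 42.8% and 21.5%, both above the sites. The share in both lists was near the background. The 3 strongest of the 186 were REF4 (scores 9.48 and 6.97 in the mbd9-3 lists), SETH5 (2.55 and 6.02) and AT5G47690 (13.7 and 11.02), and PIR121 was in neither list. These lists too share the wild-type libraries.

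**Figure D3:**
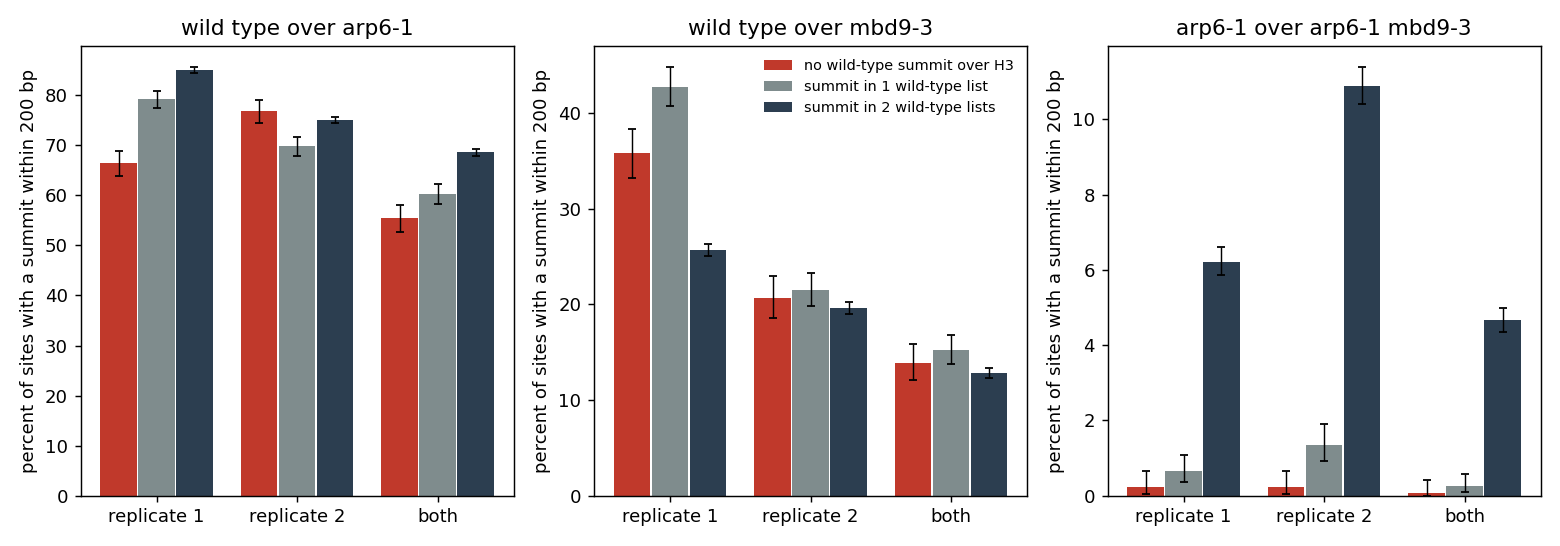
Percent of sites with a summit within 200 bp (y axis) in the replicate 1 list, the replicate 2 list and both (x axis) of wild type over arp6-1, wild type over mbd9-3 and arp6-1 over arp6-1 mbd9-3, for sites without a wild-type summit (red), with it in 1 list (grey) and in 2 (dark blue). Error bars are 95% Clopper-Pearson intervals and the y axes differ between the 3 plots. Presence in both is 55.4%, 60.3% and 68.6% for arp6-1, 13.9%, 15.2% and 12.8% for mbd9-3, and 0.0745%, 0.261% and 4.66% for arp6-1 over arp6-1 mbd9-3.

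Read in score bands, presence in both arp6-1 lists was 43.4%, 56.7%, 75.5% and 77.9% of the sites from the lowest to the highest band, against 49.3%, 62.6%, 72.7% and 82.6% of lost sites with a summit in 2 wild-type lists. It was lower at the sites in 3 of the 4 bands and higher from 6 to 8, but the intervals were apart only from 4 to 6. Lost sites with a summit in 1 wild-type list had 41.3%, 56.4%, 73.9% and 88.9%, below the sites except in the highest band. Presence in both mbd9-3 lists was 8.94%, 14.5%, 19.6% and 28.6% of the sites, against 7.19%, 11.2%, 12.4% and 17.7% of lost sites with a summit in 2 wild-type lists. It was higher at the sites than at the latter in all 4 bands, with intervals apart only from 6 to 8 and from 8 up. Lost sites with a summit in 1 wild-type list had 8.02%, 10.8%, 21.6% and 31.4%. These were above the sites from 6 to 8 and from 8 up, with overlapping intervals. The 77 sites of the highest band gave an interval of 18.8 to 40.0% for mbd9-3.

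**Figure D4:**
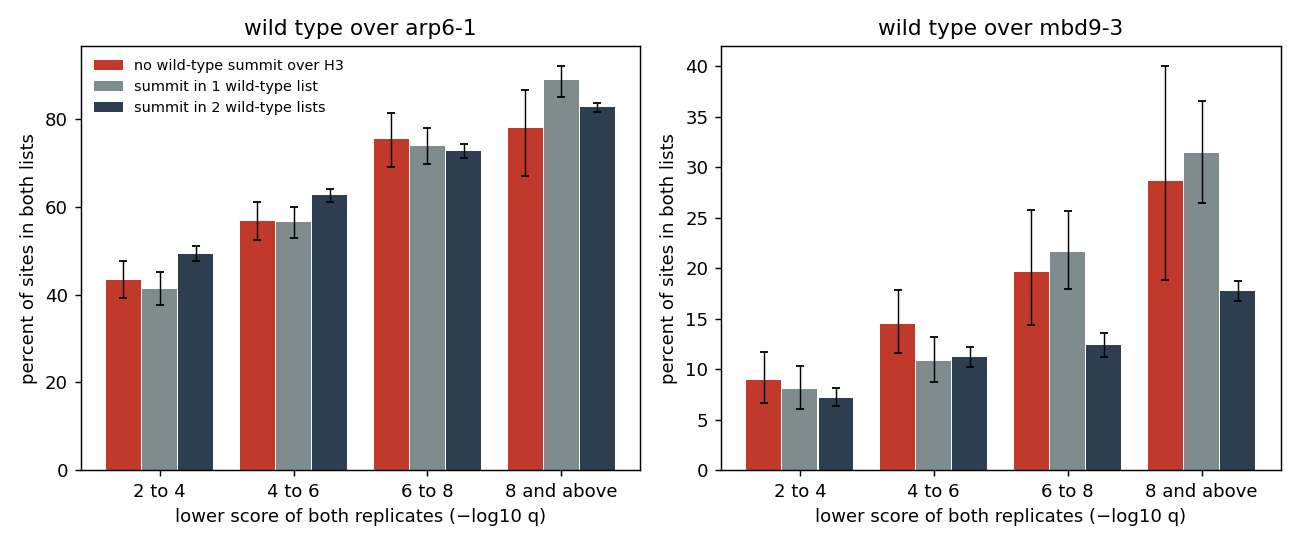
Percent of sites with a summit in both lists (y axis) of wild type over arp6-1 (left) and wild type over mbd9-3 (right) by the lower score of both replicates in wild type over arp6-1 mbd9-3 (x axis, −log10 q), for the same 3 groups with 95% Clopper-Pearson intervals. At the sites without a wild-type summit the share rises from 43.4% to 77.9% for arp6-1 and from 8.94% to 28.6% for mbd9-3.

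Combined, 124 sites (9.24%) were in both lists of both single mutants, 620 (46.2%) in those of arp6-1 and not of mbd9-3, and 62 (4.62%) in those of mbd9-3 and not of arp6-1. The same shares of all common lost sites were 10.8%, 55.9% and 2.34%. Against these the second share was lower and the third higher at the sites, and the interval of the first (7.74 to 10.9) held the background. Lost sites with a summit in 1 wild-type list had 11.6%, 48.6% and 3.61%, each with an interval that overlapped that of the sites. No summit in any of the 6 other differential lists was found at 120 sites (8.94%, 7.47 to 10.6), against 5.25% of all common lost sites. Lost sites with a summit in 1 wild-type list had 7.62% (6.57 to 8.78), an interval that overlapped that of the sites. EMB2770 was in neither arp6-1 list, with scores of 11.7 and 9.71 in the lists of arp6-1 mbd9-3. GA2OX6 was in both mbd9-3 lists (11.8 and 8.97) and in no arp6-1 list. By place, 59.7% of sites at a 5′ end, 47.2% in a gene body and 24.2% at a 3′ end were in both arp6-1 lists, the last with 8 of 33 sites. All common lost sites had 69.0%, 66.8% and 63.9% at these places, so the share differed less by place there than at the sites. Lost sites with a summit in 1 wild-type list had 66.6%, 54.2% and 43.9%, so a fall by place was not particular to the sites. At 3′ ends the interval of that group (35.9 to 52.1) overlapped that of the sites (11.1 to 42.3).

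A further fall from arp6-1 to arp6-1 mbd9-3 was almost never called at the sites. A single site (0.0745%, 0.00189 to 0.414) was in both lists of arp6-1 over arp6-1 mbd9-3, where 3.84% of all common lost sites were. Another 4 (0.298%) were in 1 list and 1337 (99.6%) in neither, against 6.56% and 89.6% of all common lost sites. Among lost sites with a summit in 1 wild-type list, 6 of 2297 (0.261%) were in both. The share depended on the score: from the lowest to the highest band it was 0.298%, 0.991%, 2.62% and 9.93% of all common lost sites. At the sites it was 0%, 0%, 0% and 1.3%, and the intervals overlapped only from 2 to 4. The lists share the arp6-1 mbd9-3 libraries with the rule. The single site was in the 5′ UTR of AT5G61220, annotated as an LYR protein of Fe/S cluster biogenesis, with scores of 10.3 and 6.48 there, 8.91 and 9.42 in wild type over arp6-1 mbd9-3, and no summit in either arp6-1 list. The 4 in 1 list were AT4G01580, annotated as an AP2/B3-like factor (replicate 2, 9.54), FKBP12, an immunophilin (replicate 1, 11.95), AT5G35160 (replicate 2, 3.86) and AT5G42290 (replicate 1, 4.18). None of these 5 sites was in both arp6-1 lists.

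Summits of mutant H2A.Z over H3 of the same mutant were also rarely called at the sites, which does not show that H2A.Z was absent there. In mbd9-3, 14 sites (1.04%) had a summit over H3 within 200 bp in replicate 1 and 26 (1.94%) in replicate 2, against 50.6% and 56.3% of lost sites with a wild-type summit. In arp6-1 it was 1 site in each list, against 14.9% and 25.7%, and in arp6-1 mbd9-3 it was 0 of 1342 in each, against 3.44% and 3.58%. Lost sites with a summit in 1 wild-type list alone had 7.75% and 10.3% in mbd9-3 and 0.479% and 1.04% in arp6-1. In arp6-1 mbd9-3 they too had 0 of 2297 in each list. The mbd9-3 and arp6-1 libraries were not used by the rule, whereas the H2A.Z libraries of arp6-1 mbd9-3 were. In both mbd9-3 lists were AT2G47935 (3.99 and 2.13), AT5G06420 (4.71 and 7.63), AT1G64650 (2.07 and 4.97), AT1G43245 (3.90 and 3.13) and AT4G10280 (5.45 and 4.47), and the arp6-1 sites were AT4G01580 in replicate 2 (6.99) and AT5G42290 in replicate 1 (2.70). These 7 were picked out because their counts are small.

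Base composition was read in the replicate 1 summit base and 100 bp on each side. The median GC content was 43.3% at the sites and 45.3% at lost sites with a wild-type summit. At 5′ ends in coding sequence it was 46.3% against 46.8%, at 5′ ends in introns 38.3% against 39.3%, and in gene bodies 44.3% against 46.3%. This gap was smaller within coding sequence and introns at the 5′ end than over all sites. Lost sites with a summit in 1 wild-type list alone had the same medians as the sites, over all and in these classes. The lower GC content was thus not particular to the sites. The median number of CG dinucleotides was 8 against 9 at lost sites with a wild-type summit. The mean share of the window soft-masked in the reference as repeat or low-complexity DNA was 11.6% against 8.35%, and 9.94% with a summit in 1 wild-type list.

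**Figure D5:**
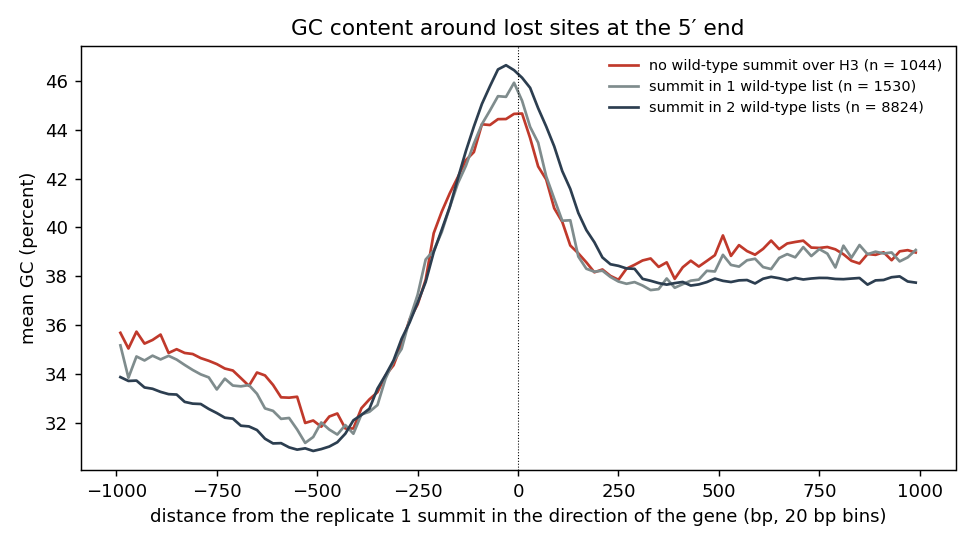
Mean GC content in percent (y axis) in 20 bp bins by distance from the replicate 1 summit in bp, in the direction of the gene (x axis), for the sites at 5′ ends only, in the same 3 groups (1044, 1530 and 8824 sites). GC rises to a maximum near the summit in all 3, and the maximum is lowest for the sites without a wild-type summit, whose median in the window of 100 bp on each side is 43.3% against 43.8% and 45.3%.

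Of 4 short motifs searched on both strands of that window, all were found at a higher share of the sites than of lost sites with a wild-type summit. The telo box, AAACCCTA, a motif known from promoters of plant translation and cell cycle genes, was in 113 windows (8.42%, 6.99 to 10.04), against 4.10%, 4.39% of all common lost sites and 3.50% of common wild-type summits over H3. At 5′ ends alone it was in 9.48% (7.77 to 11.4), against 5.40%. Lost sites with a summit in 1 wild-type list alone had it in 7.65% there (6.37 to 9.09). The run AAAAAAAA was in 4.55% against 2.06%, GAAGAAGAA in 11.6% against 7.66% and GAGAGAGA in 8.12% against 6.42%. At 5′ ends alone these were 4.98% against 2.69%, 12.4% against 9.41%, and 8.72% (7.08 to 10.6) against 8.13% (7.61 to 8.68). The intervals for GAGAGAGA overlapped over all sites and also at 5′ ends. Lost sites with a summit in 1 wild-type list had 3.33%, 11% and 8.17% there. Against that group the intervals at 5′ ends overlapped for all 4 motifs. A match is only the presence of these letters.

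Among 18 gene groups set by words in the product names, some of which overlap, the share of genes with any common lost site that held one of the 1342 sites ranged from 0 to 13.9%, where it was 8.17% over all protein-coding genes. The highest was that of ribosomal protein genes, of which 11 of 79 held a site. As a share of all 344 genes of that group it was 3.20%, below the 4.33% of all protein-coding genes, and 23.0% of the group held any common lost site. Likewise the photosystem group had 2.53% of its 79 genes. The ribosomal protein genes with a site included RPS9 (7.57 and 6.49) and RPL3P (8.70 and 6.80), both of plastid ribosomes, and AT4G25890, a 60S acidic ribosomal protein (9.78 and 5.41). Heat shock and DNAJ chaperone genes followed the photosystem group, with 15 of 128 (11.7%), among them HSP60 (4.02 and 5.79) and ARC6 (6.33 and 8.95), which acts in chloroplast division. The photosystem group had 2 of 15, HCF136, a photosystem II assembly factor (8.57 and 12.7), and AT5G26160 (10.2 and 11.1), which is annotated as a light-independent protochlorophyllide reductase subunit and entered the group by its product words.

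No site was in the 50 WRKY transcription factor genes, the 27 SAUR auxin-response genes or the 22 cysteine-rich receptor-like kinase genes with a common lost site. Sites were in 1 of 57 MYB genes (AT2G01060), 2 of 142 cytochrome P450 genes (CYP71B28 and CYP714A2, 1.41%), 2 of 94 glycosyltransferase genes (AT3G09455, annotated as a dolichyl-diphosphooligosaccharide-protein glycosyltransferase subunit, and AT4G01210), 2 of 47 AP2 or ERF genes (RAP2.12, a hypoxia-response factor, and AT4G01580) and 15 of 368 F-box genes (4.08%). The 5 of 76 NBS-LRR disease resistance genes included RPS2, an immune receptor with 2 sites at its 3′ end, and LAZ5. Of 66 genes with histone in their name 4 held a site, and they were the modifying enzymes HUB1, HDA9 and HD1 and the chaperone HIRA. The overall share was 8.17%, and pentatricopeptide repeat (15 of 199, 7.54%), NBS-LRR (6.58%) and histone (6.06%) genes were near it. The SAUR and cysteine-rich groups hold few genes, so the lack of a site in them says little. These shares are counts without a test.

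The sites were spread over the chromosomes much as genes were. Chromosomes 1 to 5 held 362, 184, 281, 207 and 308 sites, or 27.0%, 13.7%, 20.9%, 15.4% and 23.0%, against 26.1%, 15.7%, 19.9%, 15.2% and 23.1% of protein-coding genes. The 20 gene-poor bins of 116 full 1 Mb bins held 3.50% of the sites and 3.35% of lost sites with a wild-type summit. A bin held a median of 11 sites and at most 29, and 6 bins held none.

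With the lists of replicate 2 alone the rule gave 4212 sites and with those of replicate 1 alone 3463, where both the loss and the absence of a wild-type summit are asked for in 1 list and not 2. With 1 list each, presence in the mbd9-3 list was 19.2% and 29.4%, and in the list of arp6-1 over arp6-1 mbd9-3 0.926% and 0.231%.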

How the data were processed

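Summit lists from ChIP-seq of H2A.Z and H3 in seedlings of the 4 genotypes were used, with groups from the sample labels. Per the methods, the authors mapped unique reads to TAIR10 with Bowtie, removed duplicates with SAMtools and called peaks per replicate with MACS2 (2.1.1), as 8 lists of H2A.Z over H3 and 8 of H2A.Z between genotypes. The deposited score is the −log10 of the q value, with 2 as its lowest level (q of 0.01). Lists hold no counts, so depth is unknown, and how H2A.Z libraries were scaled to each other is not given in the sources used here. A different scaling could change which losses were called.

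Summits were matched by position (Python 3.11.15, NumPy 2.4.6, SciPy 1.17.1) and placed in 37899 RefSeq genes of TAIR10.1, whose 5 nuclear chromosomes hold all summits. Functions were tested on simulated lists. With 2 replicates a genotype no exact permutation test can go below p = 0.333, so values are descriptions with Clopper-Pearson intervals (counting error only). Named are the sites that rank highest by the lower of their replicate scores, overall and by class and list, those nearest each limit, genes with most sites, the longest runs and fixed pathway genes. Genes named for small counts, or as examples of a gene group, were chosen after their values were seen. A further sequence is not reported here. The sites and gene groups were chosen with earlier results of these data known.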

Additional observations from a re-analysis of the deposited data

How the results depend on the processing

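The number of sites stayed within 1.5 times 1342 in 6 of 9 alternatives. It was 510 with scores of at least 5 in both replicates and 3463 to 4212 with 1 replicate left out. The share at a 5′ end (77.8%) was 74.6% with summits joined over 500 bp, 71.6% with a wild-type exclusion of 200 bp, 86.9% with scores of at least 5 and 63.8 to 64.5% with 1 replicate left out. It was 39.7% and 85.4% with windows of 300 and 700 bp, which redefine the class, and 66.5%, 82.3%, 90.7% and 92.2% in the score bands.

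Presence in both arp6-1 lists (55.4%) was 51.7% with joining over 500 bp, 52.2% with an exclusion of 200 bp, 70.0% with scores of at least 5, 87.7% when 1 list sufficed, 43.4%, 75.5% and 77.9% in the lowest and the 2 highest bands, and 57.4 to 63.1% with 1 replicate left out. Presence in both mbd9-3 lists (13.9%) was 20.8% with scores of at least 5, 42.6% when 1 list sufficed, 8.94%, 19.6% and 28.6% in those bands, and 19.2 to 29.4% with 1 replicate left out. Presence in arp6-1 over arp6-1 mbd9-3 was 0.231 to 0.926% with 1 replicate left out, in which case 1 list is asked for and not 2. Median GC (43.3%) was 42.8% with joining over 500 bp or an exclusion of 1000 bp, 44.3% with scores of at least 5, 40.9% with 250 bp on each side and 42.3 to 42.8% with 1 replicate left out. Where no construction is named, the cause was not tested. The other 35 of 71 values stayed within the interval, the spread or 1.5 times the reported value. The score bands, the 5′ end alone for GC and counting sites that share a replicate 2 summit once were chosen after seeing the data. No paired analysis was possible because each differential list was called within a replicate number and the results come from no test. The lists hold no coverage, so a site without a wild-type summit may still carry H2A.Z below the limit of the lists.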
